A study of Mus musculus with 4 samples.

Results

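The Iroquois homeobox genes Irx1 to Irx6 were examined in cells sorted by fluorescence from mouse otocysts, the closed epithelial vesicles that form the inner ear. All 6 genes were found by their GENCODE symbols among the 52636 genes of the count tables. The comparison is of 2 Brg1cKO libraries, from otocysts with a conditional knockout of the chromatin remodeler Brg1, with 2 Control libraries. Every library was made from 3000 cells labelled as otic ectoderm and read over 75 bases. The sources used here do not give the Cre driver, the strain, the embryonic stage, whether embryos were pooled, or whether the replicates came from separate embryos, litters or sorts. The spread behind the p-values is that between these 4 libraries and may be technical.

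Iroquois genes, named after a gene complex of Drosophila, encode transcription factors of the TALE homeodomain class, whose homeodomain has extra residues in the loop between its first helices. They pattern many tissues of the embryo, among them the neural tube, heart, limb and kidney, and they mark territories of the developing inner ear epithelium. In mammals they lie in a pair of clusters, with Irx1, Irx2 and Irx4 in the first and Irx3, Irx5 and Irx6 in the second.

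The homeobox is the stretch in which the family members are most alike, so it bears on whether short reads can be told apart between members. The read-length window of 75 coding bases that was most alike over the 6 genes is shown here, 5′ to 3′ on the coding strand, from GENCODE M21 transcripts (mm10). Capitals mark the 7 positions that are not the same in all 6 genes; the other 68 are identical.
Irx1: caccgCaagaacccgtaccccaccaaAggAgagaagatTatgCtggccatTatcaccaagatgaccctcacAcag
Irx2: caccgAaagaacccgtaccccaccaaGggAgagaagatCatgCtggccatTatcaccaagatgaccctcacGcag
Irx4: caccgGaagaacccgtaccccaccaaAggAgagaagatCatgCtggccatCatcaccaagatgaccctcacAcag
Irx3: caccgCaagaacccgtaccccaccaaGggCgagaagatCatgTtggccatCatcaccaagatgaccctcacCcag
Irx5: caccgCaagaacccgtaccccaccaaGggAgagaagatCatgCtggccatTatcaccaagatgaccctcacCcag
Irx6: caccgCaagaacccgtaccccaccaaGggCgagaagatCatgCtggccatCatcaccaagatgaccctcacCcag

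These windows lie in coding exons at chr13:71960043-71960117 (Irx1, minus strand), chr13:72630727-72630801 (Irx2, plus strand), chr13:73267586-73267660 (Irx4, plus strand), chr8:91800547-91800621 (Irx3, minus strand), chr8:92359690-92359764 (Irx5, plus strand) and chr8:92677299-92677373 (Irx6, plus strand). Irx3 and Irx6 were the most alike pair, with 74 of 75 bases identical, and Irx1 and Irx3 the least alike, with 69 of 75. Over whole transcripts the longest run of bases shared by Irx3 and Irx6 was 88, longer than a read, and that of Irx2 and Irx5 was 65, shorter than a read. A read could thus match another Irx gene without mismatch in 14 of the 2762 read-length words of Irx3 and 14 of the 3368 of Irx6, and in 0 words of the other members. Irx3 and Irx6 each also overlap an annotated antisense gene, Irx3os over 124 exonic bases and Gm45505 over 152. With these genes included and either strand allowed, 64 words of Irx3 and 69 of Irx6 were shared with another gene. Reads in those bases are uncertain, since no source used here states the strand setting of the counting, although Gm45505 held 0 reads in every library.

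Reads in genes numbered 29361382 and 25875555 in Brg1cKO and 15357265 and 19132360 in Control, with 20859 and 20902 genes detected in Brg1cKO against 17266 and 17086 in Control. Levels are given as CPM, a gene's count set against the TMM-scaled total of its library. Smarca4, the gene for Brg1 (ENSMUSG00000032187), stood at 891 and 848 CPM in Brg1cKO and at 816 and 815 CPM in Control. Its log2 fold change was 0.09 ± 0.0995 (SE, adjusted p = 0.817, edgeR). The labels do not name the deleted exons and the count covers the whole gene, so the directions given for the Irx genes rest on the labels alone.

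All 6 Irx genes had negative log2 fold changes of Brg1cKO over Control, and 4 of them, Irx1, Irx2, Irx3 and Irx5, were below both Control libraries in both Brg1cKO libraries. The signs of Irx4 and Irx6 are uncertain, since each had 0 reads in a Control library. Both turned positive in some alternative fits, such as limma voom (1.47 and 1.96). Among all 16557 genes tested, 48.5% had negative fold changes, 17.8% were lower in both Brg1cKO libraries and 26.3% were higher in both, against 0 of the 6 Irx genes. The median over the 6 genes, with Irx4 and Irx6 included, was -1.77, beside 0.03 over all genes tested. None passed an adjusted p under 0.05 by edgeR's quasi-likelihood test: 0 of 6 were called, where 5 of all genes tested were, or 0.0302% (0.0181% lower). At an unadjusted p under 0.05, 4 of the 6 were lower, where 4.8% of all genes tested were lower. The 6 genes together summed to 129 and 88.6 CPM in Brg1cKO, against 298 and 406 CPM in Control. In a bulk library, fewer cells that express a gene and less of its RNA per cell cannot be told apart.

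**Figure D1:**
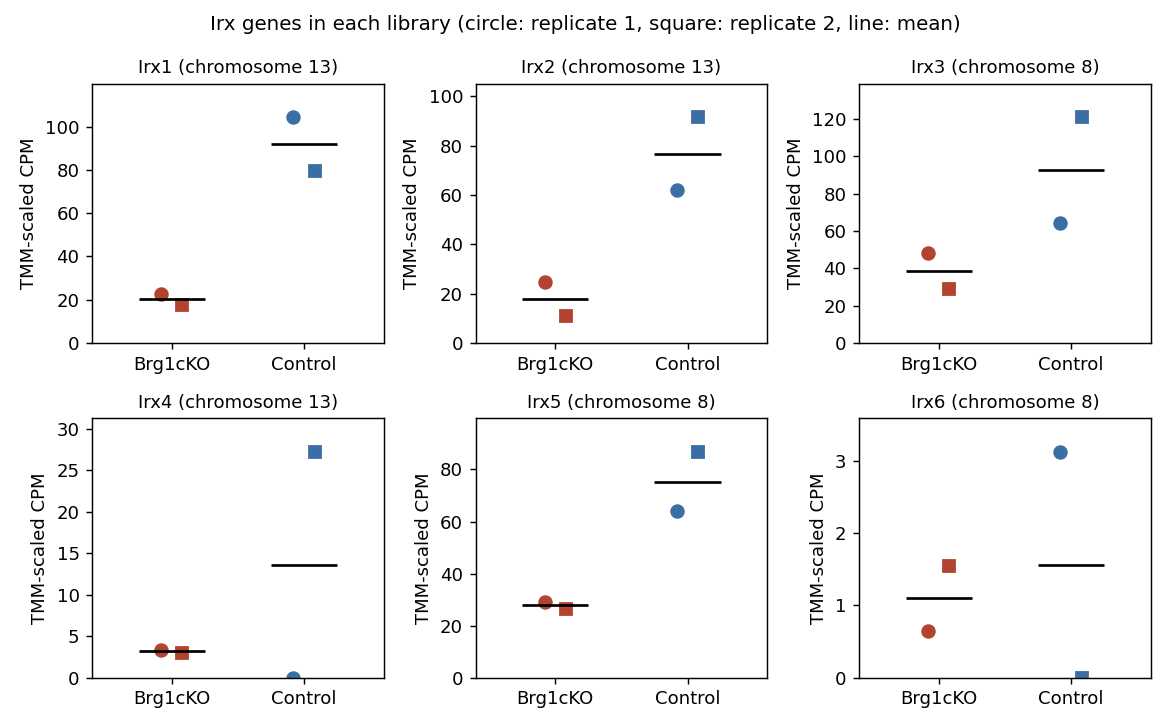
TMM-scaled CPM of each Irx gene (vertical axis, from 0, scaled per gene) in the Brg1cKO and Control libraries; circles are replicate 1, squares replicate 2 and lines group means. Irx1, Irx2, Irx3 and Irx5 sit lower in both Brg1cKO libraries, while for Irx4 and Irx6 a single Control library is at 0 and the groups overlap.

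Irx1, a regulator of patterning in embryonic epithelia such as kidney and lung (ENSMUSG00000060969, chromosome 13, 71957921 to 71963723), stood at 22.8 and 17.6 CPM in Brg1cKO, against 104 and 79.5 CPM in Control. Both pairs of replicates lay close together and far from the other pair. The means were 20.2 ± 3.70 CPM in Brg1cKO and 91.9 ± 17.5 CPM in Control (SD, n = 2 each), and the mean in Control was 4.56 times as high. Brg1cKO over Control gave a log2 fold change of -2.19 ± 0.386 (SE; 95% interval -3.09 to -1.28; adjusted p = 0.128, edgeR). By unadjusted p (0.000665) Irx1 stood at rank 84 among the genes tested.

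Irx2, which is expressed alongside Irx1 in many embryonic tissues (ENSMUSG00000001504, chromosome 13, 72628820 to 72634198), stood at 24.8 and 10.99 CPM in Brg1cKO, against 61.8 and 91.4 CPM in Control. Replicates differed more than those of Irx1, with a log2 ratio of 1.18 between the Brg1cKO libraries, but the groups did not overlap. Its log2 fold change of -2.10 ± 0.522 (SE) had a 95% interval of -3.33 to -0.87 (unadjusted p = 0.00493, adjusted p = 0.285, edgeR). Its means were 17.9 ± 9.79 CPM in Brg1cKO and 76.6 ± 20.9 CPM in Control (SD, n = 2 each).

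Irx4, a marker of the ventricular chambers of the heart (ENSMUSG00000021604, chromosome 13, 73260479 to 73269608), had 98 and 77 reads in Brg1cKO, or 3.35 and 2.97 CPM, against 0 and 512 reads in Control, or 0 and 27.2 CPM. The Brg1cKO replicates lay together between a Control library with no read and a Control library with the highest level of the 4. With 0 reads, Control replicate 1 allows a level of up to 0.195 CPM, counting error only. Its log2 fold change of -2.10 ± 2.19 (SE, adjusted p = 0.812, edgeR) had a 95% interval from -7.25 to 3.05. Without Control replicate 1 it was -3.10 (adjusted p = 0.000927, edgeR), while without Control replicate 2 the Brg1cKO mean was at least 16.2-fold higher than the level that 3 counts in the remaining Control library allow. Of 13968 protein-coding genes tested, 18 had 0 reads in a Control library and at least 512 in the other, and 0 had that pattern between the Brg1cKO libraries.

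Irx3, a homeodomain repressor that helps to divide the neural tube into progenitor domains (ENSMUSG00000031734, chromosome 8, 91798525 to 91802067), stood at 48.0 and 29 CPM in Brg1cKO, against 64.4 and 121 CPM in Control. Per exonic length it was the member with the highest level in both Brg1cKO libraries, and its groups lay closest among the 4 that did not overlap. Relative to Control the log2 fold change was -1.27 ± 0.443 (SE; 95% interval -2.31 to -0.22; unadjusted p = 0.0240, adjusted p = 0.368, edgeR). Without Control replicate 2 it was -0.76 (adjusted p = 0.131, edgeR), and without Control replicate 1 it was -1.65 (adjusted p = 2.47e-06, edgeR).

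Irx5, which acts with Irx3 in heart and limb development (ENSMUSG00000031737, chromosome 8, 92357625 to 92376286), stood at 29.1 and 26.6 CPM in Brg1cKO, against 64.0 and 86.6 CPM in Control. The Brg1cKO replicates were close together, and both were well below the lower Control library. For Irx5 the log2 fold change was -1.44 ± 0.382 (SE; 95% interval -2.33 to -0.54; unadjusted p = 0.00666, adjusted p = 0.310, edgeR). Its means were 27.9 ± 1.81 CPM in Brg1cKO and 75.3 ± 16.02 CPM in Control (SD, n = 2 each).

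Irx6, known from bipolar cells of the mouse retina (ENSMUSG00000031738, chromosome 8, 92674288 to 92680956), had 19 and 40 reads in Brg1cKO, or 0.649 and 1.54 CPM, against 48 and 0 reads in Control, or 3.12 and 0 CPM. It was scarce in every library and the groups overlapped. The Control library without a read was replicate 2, which held the higher Irx4 level. The log2 fold change of -0.50 ± 2.49 (SE, adjusted p = 0.972, edgeR) had a 95% interval from -6.37 to 5.36. Among the protein-coding genes tested, 554 had 0 reads in a Control library and at least 48 in the other, against 103 between the Brg1cKO libraries.

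**Figure D2:**
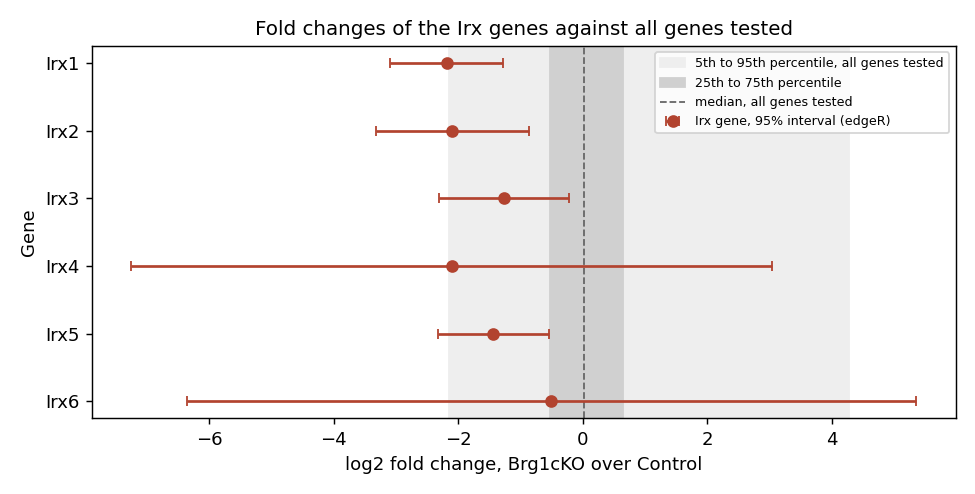
Log2 fold change of Brg1cKO over Control for each Irx gene (horizontal axis, points) with its 95% interval from edgeR (bars), over the percentiles and median of all genes tested (shading and dashed line). The intervals of Irx1, Irx2, Irx3 and Irx5 lie below 0, and those of Irx4 and Irx6 span it.

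Whether these differences passed depended on the test and the libraries used. With DESeq2, Irx1, Irx2, Irx3 and Irx5 were lower, in a fit that called 6.3% of all genes tested lower. Keeping genes down to 1 count in all, 2 were lower (Irx1 and Irx2), beside 1.01% of all genes tested. Without Control replicate 1, all but Irx6 were lower, beside 8.82% of all genes tested, and without Control replicate 2, Irx1, Irx2 and Irx5 were, beside 8.39%. Without either Brg1cKO library 0 passed. Where a group is left with a lone library, its spread is assumed to be that of the other group. The log2 fold changes of Irx1, Irx2, Irx3 and Irx5 were negative in all 14 alternative fits of each. Their groups did not overlap, so refits of the same libraries had little room to change the sign, and only the sizes are informative. These ran from -2.39 to -1.97 for Irx1 and from -2.79 to -1.62 for Irx2. They ran from -1.66 to -0.76 for Irx3 and from -1.63 to -1.22 for Irx5.

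**Figure D3:**
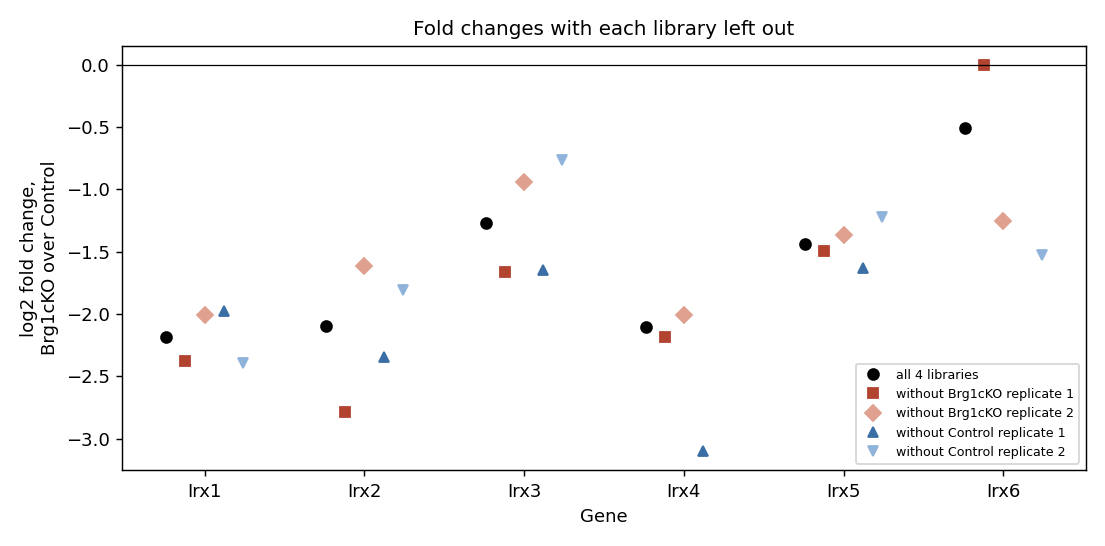
Log2 fold change of Brg1cKO over Control for each Irx gene (vertical axis) fitted with all 4 libraries and with each library left out in turn. Irx1, Irx2, Irx3 and Irx5 stay below 0 in each fit, where the lack of overlap between their groups left little room for another sign. No point is drawn for Irx4 without Control replicate 2 or Irx6 without Control replicate 1, since the remaining Control library held 0 reads.

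To compare levels between members, CPM was divided by the exonic length of each gene in kb. In Brg1cKO the order was Irx3 (13.9 CPM per kb), Irx5 (8.91), Irx1 (7.70), Irx2 (5.46), Irx4 (1.21) and Irx6 (0.325). There the libraries of Irx5 and Irx1 overlapped, as did those of Irx1 and Irx2, while the other neighbours in the order did not overlap. In Control the order was Irx1 (35.1 CPM per kb), Irx3 (33.5), Irx5 (24.1), Irx2 (23.3), Irx4 (5.21) and Irx6 (0.463). The neighbours among the highest 4 overlapped, although Irx1 was above Irx5 and Irx2 in both libraries. Irx4 was below those 4 in both libraries and overlapped with Irx6.

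The chromosome 13 cluster (Irx1, Irx2 and Irx4) made up 39.6% and 35.6% of the summed Irx CPM in Brg1cKO, against 55.8% and 48.8% in Control. Its sum averaged 41.2 ± 13.8 CPM in Brg1cKO and 182 ± 22.6 CPM in Control (SD, n = 2 each), so the Brg1cKO mean was 22.7% of the Control mean. The chromosome 8 cluster (Irx3, Irx5 and Irx6) averaged 67.4 ± 14.6 CPM in Brg1cKO and 170 ± 53.7 CPM in Control, a Brg1cKO mean of 39.8% of the Control mean. The difference between the clusters was not tested. The share of Irx3 in the family was 37.3% and 32.7% in Brg1cKO, against 21.7% and 29.8% in Control, and that of Irx1 was 17.7% and 19.8% in Brg1cKO, against 35.0% and 19.6% in Control, so the groups overlapped for Irx1.

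Around the coding genes, 3 other transcripts inside the chromosome 8 cluster were also lower in both Brg1cKO libraries, as were 17.8% of all genes tested. Crnde, a long noncoding RNA transcribed away from Irx5 on the other strand, stood at 10.04 and 8.95 CPM in Brg1cKO, against 34.9 and 19.1 CPM in Control (log2 fold change -1.51, adjusted p = 0.453, edgeR). Irx3os, the antisense gene of Irx3, stood at 0 and 0.154 CPM in Brg1cKO, against 0.455 and 3.40 CPM in Control (adjusted p = 0.591, edgeR). It had only 0 and 4 reads in Brg1cKO, against 7 and 64 in Control, and shares 124 exonic bases with Irx3. Gm21817, a long intergenic RNA gene within the span of Crnde on the same strand, stood at 1.40 and 0.0386 CPM in Brg1cKO, against 2.14 and 3.82 CPM in Control (adjusted p = 0.826, edgeR). Its reads were 41 and 1 in Brg1cKO, against 33 and 72 in Control. These 3 are all the other genes annotated inside that cluster that held a read; none was called. Inside the chromosome 13 cluster, the other genes with reads (Rpl9-ps4, Gm4057 and Gm20554) were too low to be tested. Gm20554, a long intergenic RNA gene that starts just upstream of Irx2 on the opposite strand, had 3 and 1 reads in Brg1cKO, against 75 and 0 in Control, so its groups overlapped. The others were higher in both Brg1cKO libraries. Rpl9-ps4 had 9 and 38 reads in Brg1cKO, against 0 and 3 in Control, and Gm4057 had 1 and 5, against 0 and 0.

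The nearest protein-coding genes outside the clusters showed no common direction. Of the 3 on each side of each cluster, 11 of 12 were tested (Med10, with 1 read in all, was not), 5 of them had negative log2 fold changes and 0 were called by edgeR. Fto, whose introns hold distant enhancers of Irx3, stood at 123 and 86.7 CPM in Brg1cKO, against 128 and 96.1 CPM in Control (log2 fold change -0.09, adjusted p = 0.952, edgeR). Ndufs6, a subunit of mitochondrial complex I next to Irx4, stood at 29.6 and 43.2 CPM in Brg1cKO, against 23.7 and 45.0 CPM in Control. Mmp2, a matrix metalloproteinase beyond Irx6, stood at 254 and 294 CPM in Brg1cKO, against 259 and 217 CPM in Control. In each of these 3 the groups overlapped, as they did for Adamts16 and Capns2. In the other 6 they did not, with 3 lower in both Brg1cKO libraries (Ice1, Lpcat1 and Lpcat2) and 3 higher in both (Mrpl36, Aktip and Rpgrip1l). Lpcat2, an enzyme of phospholipid remodelling beyond Irx6, stood at 2.08 and 4.82 CPM in Brg1cKO, against 9.74 and 8.91 CPM in Control (log2 fold change -1.43, adjusted p = 0.782, edgeR). Aktip, which lies before Irx3, stood at 54.1 and 43.9 CPM in Brg1cKO, against 23.45 and 4.19 CPM in Control (log2 fold change 1.83, adjusted p = 0.419, edgeR).

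**Figure D4:**
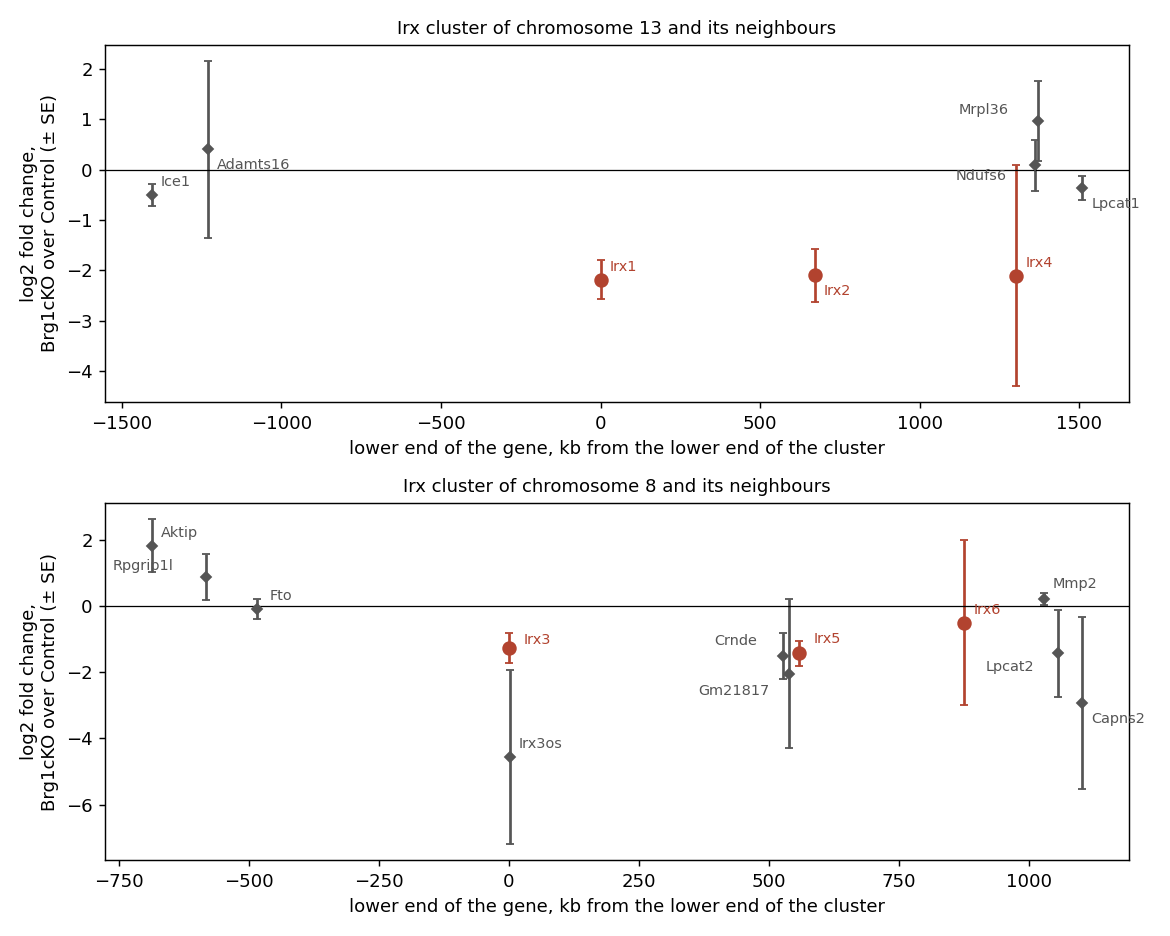
Log2 fold change of Brg1cKO over Control with its SE (vertical axis) for the tested genes in and around each Irx cluster, by the distance of the gene's lower end from the lower end of the cluster in kb (horizontal axis). Irx genes are red circles and other genes grey diamonds; the genes inside both clusters lie below 0, and the flanking genes lie on both sides of it.

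Promoter sequences from RefSeq (GRCm38.p6) were at hand for Irx2, Irx3 and Irx4. They are shown for Irx2, because its start lies next to that of Gm20554, and for its cluster neighbour Irx4, as the bases upstream of the annotated start, with CG dinucleotides in capitals. The window of Irx3 lies within the longer GENCODE gene and is not shown.
Irx2: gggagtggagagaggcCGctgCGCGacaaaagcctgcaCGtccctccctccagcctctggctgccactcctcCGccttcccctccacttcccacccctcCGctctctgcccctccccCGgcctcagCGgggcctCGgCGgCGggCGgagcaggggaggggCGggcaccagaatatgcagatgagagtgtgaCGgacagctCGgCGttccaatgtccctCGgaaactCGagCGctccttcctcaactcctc
Irx4: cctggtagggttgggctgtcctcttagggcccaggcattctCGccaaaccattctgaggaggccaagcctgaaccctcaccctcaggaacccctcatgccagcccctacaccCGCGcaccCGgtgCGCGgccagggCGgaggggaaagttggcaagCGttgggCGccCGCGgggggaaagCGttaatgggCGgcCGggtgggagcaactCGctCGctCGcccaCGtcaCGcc

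The first is chr13:72628570-72628819 and the second chr13:73260247-73260478, both on the plus strand. In 250 and 232 bases, each holds 19 CG dinucleotides, as CpG-rich promoters of developmental regulators do, where 80.3% of the 32851 promoter windows of 250 bases hold fewer and the median is 6. The TATA motif TATAAA, searched on both strands, was in neither, and 12.4% of all windows hold it. ACANNTGT, a palindrome bound by Iroquois proteins of Drosophila, reads the same on both strands and was in neither, and 6.31% of all windows hold it.

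The other genes of the TALE homeodomain class did not share a direction. Of 12 members, which include the Meis and Pbx cofactors of HOX proteins and the Pknox, Tgif and Mkx genes, 6 had negative and 6 positive log2 fold changes, with a median of 0.01, and 0 were called by edgeR. Their summed level was 763 to 863 CPM in Brg1cKO, against 689 to 843 CPM in Control. Meis1 stood at 96.1 and 75.4 CPM in Brg1cKO, against 53.6 and 62.8 CPM in Control (log2 fold change 0.56, adjusted p = 0.585, edgeR). Pbx2, the member with the highest average, stood at 171 and 155 CPM in Brg1cKO, against 158 and 192 CPM in Control, so the groups overlapped. Mkx, an Iroquois-related gene of tendon, stood at 9.90 and 5.48 CPM in Brg1cKO, against 24.8 and 20.4 CPM in Control (log2 fold change -1.55, adjusted p = 0.504, edgeR). Meis2, Tgif1 and Pbx3 had log2 fold changes of 0.38, -0.39 and 0.12.

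Markers of otic epithelium were lower as well. All 18 in the list were negative (median log2 fold change -1.99), and their summed level was 448 to 461 CPM in Brg1cKO, against 2222 to 2335 CPM in Control. Oc90, an otoconial matrix protein of otic epithelium and the only member called (adjusted p = 0.000326, edgeR), stood at 44.6 and 49.1 CPM in Brg1cKO, against 782 and 732 CPM in Control. Fbxo2, another otic marker, was at 0 in at least one library of each group. Otic neuroblast markers were lower too, 13 of 13 negative with a median of -1.61 and a summed level of 366 to 438 CPM in Brg1cKO, against 973 to 1183 CPM in Control. Their part in the Irx difference was not tested.

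Lists for other tissues did not share a direction. Cardiac genes had 14 of 15 tested members positive (median log2 fold change 3.18) and a summed level of 1054 to 1106 CPM in Brg1cKO, against 257 to 273 CPM in Control. The negative member, Isl1 (log2 fold change -1.21), is also in the otic neuroblast list. The 2 Brg1cKO levels of Irx4, the ventricular member, lay between those of the 2 Control libraries, above replicate 1 and below replicate 2. The part of cardiac cells in the Irx4 level was not tested. Myl2, the ventricular myosin light chain, was among 7 cardiac genes at 0 in a Control library. Some of these genes were too low to be tested or were also at 0 in a Brg1cKO library. Other lists, among them the hindbrain and neural tube factors, also held genes at 0 in a Control library. Hindbrain and neural tube factors had 6 of 11 negative with a median of -0.22, a summed level of 87.4 to 119 CPM in Brg1cKO, against 89.5 to 188 CPM in Control, and Gsx1 and Ptf1a at 0 in every library. Head mesenchyme markers had 5 of 15 negative (median 0.35, 2574 to 2579 CPM in Brg1cKO, against 3042 to 3303 CPM in Control). Their lower sum includes Col1a1 at 568 and 580 CPM in Brg1cKO, against 1107 and 1207 CPM in Control, while 10 members were positive. Surface ectoderm and pharyngeal markers had 6 of 11 negative (median -0.02, 235 to 284 CPM in Brg1cKO, against 325 to 354 CPM in Control). Their lower sum includes Krt18 at 70.9 and 74.6 CPM in Brg1cKO, against 139 and 158 CPM in Control, while 5 members were positive.

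Blood and vessel markers were compared in the same way. Macrophage markers had 10 of 10 positive, with a median of 2.10 and a summed level of 1335 to 1438 CPM in Brg1cKO, against 298 to 358 CPM in Control, and Mrc1 was called higher (adjusted p = 0.0371, edgeR). Red blood cell markers had 6 of 7 tested members negative (median -1.49, 207 to 222 CPM in Brg1cKO, against 619 to 648 CPM in Control). Endothelial markers had 3 of 11 negative (median 0.11, 3176 to 3221 CPM in Brg1cKO, against 2807 to 2909 CPM in Control). The part of these cells in the Irx levels was not tested.

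**Figure D5:**
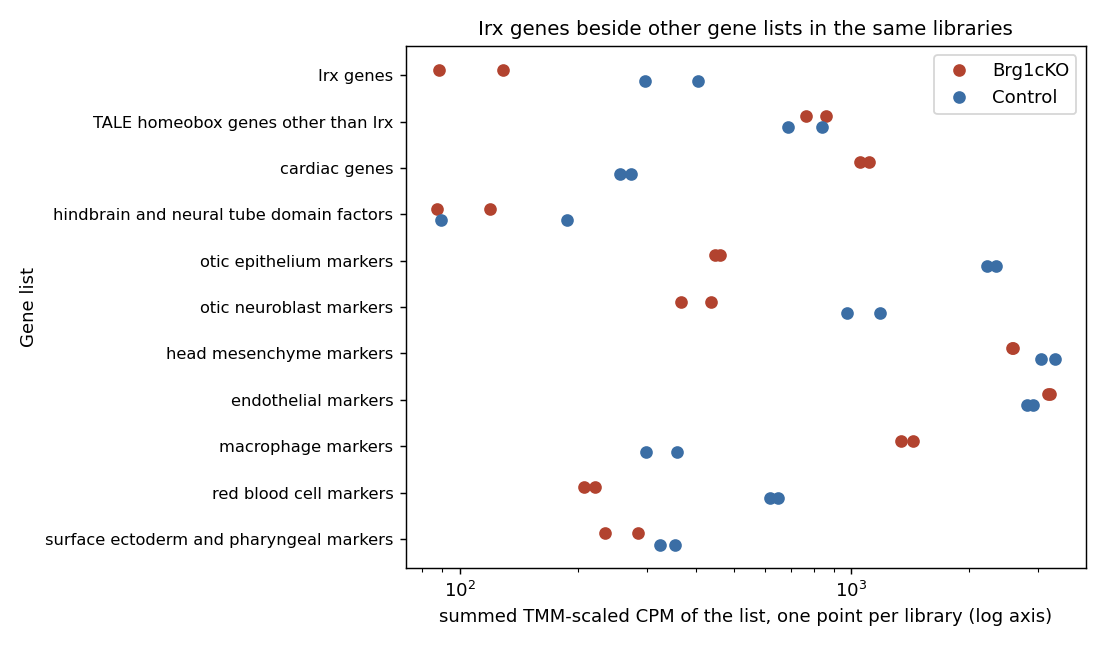
Summed TMM-scaled CPM (log axis) of the Irx genes and of each other gene list, with a point for each Brg1cKO and Control library. The Irx sum is lower in both Brg1cKO libraries, as are the sums of the otic epithelium, otic neuroblast, red blood cell, head mesenchyme and surface ectoderm lists. Sums follow the most abundant members: 10 of 15 head mesenchyme and 5 of 11 surface ectoderm genes tested had positive fold changes. The cardiac, macrophage and endothelial sums are higher in both, and the TALE and hindbrain sums overlap.

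Within the family, Irx3 and Irx5 had the most alike profiles over the 4 libraries, with a Euclidean distance of 0.564 between their centred log2 CPM. Irx1 and Irx2 were next at 0.88, close to some pairs from different clusters: Irx1 and Irx5 at 0.98, Irx2 and Irx3 at 1.02, and Irx2 and Irx5 at 1.06. Irx1 and Irx3, also from different clusters, were further apart at 1.34. Pairs with Irx4 or Irx6 were 6.4 or more apart, within a cluster as well as between clusters. Among 10677 protein-coding genes whose average log2 CPM was 3 or more, the 3 nearest to Irx1 were Spock1 (0.152), Slc4a1 (0.204) and Plch1 (0.242). Slc4a1 is also a member of the red blood cell list. Spock1, a proteoglycan gene, stood at 5.77 and 4.94 CPM in Brg1cKO, against 27.8 and 23.2 CPM in Control. The nearest to Irx2 were Samd10 (0.142), Rragb (0.247) and Slc8a3 (0.294). Those nearest to Irx3 were Ankrd24 (0.0589), Pclo (0.122) and Prr36 (0.167). For Irx5 they were Pcdhgb7 (0.0818), whose count is uncertain because gamma protocadherins share exons, Stra6 (0.099) and Cx3cl1 (0.0995).

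Stra6, the membrane receptor for retinol-binding protein, stood at 16.5 and 15.2 CPM in Brg1cKO, against 33.8 and 46.2 CPM in Control. Genes near Irx4 included Ccdc96 (0.288) and Adcy9 (0.74), both with 0 reads in Control replicate 1. Irx6 was nearest to Pcdh9 (0.414), Nit2 (0.733) and Pqlc2 (0.814), each with 5 or fewer reads in Control replicate 2. These distances rest on 4 libraries, in which many genes share the same order.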

How the data were processed

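Reads per gene in 4 libraries were analysed. The authors deposited raw counts, whole numbers under Ensembl identifiers with no normalization, and the submitters' processing notes name HISAT2, HTSeq, DESeq2 and mm10 without a role or version. Which gene annotation and strand setting the counting used is not given in the sources used here. Records that name no gene were 36.0% and 36.3% of all records in Brg1cKO and 51.8% and 50.7% in Control, and entered neither library sizes nor tests. Symbols, positions and exonic lengths came from GENCODE M21 (mm10), which has 52489 of the 52636 identifiers.

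Tests used edgeR 4.0.16 (R 4.3.3). The filter filterByExpr (minimum count 10) left 16557 genes, all 6 Irx genes among them, and libraries were scaled by TMM. A robust quasi-likelihood model with group as its term was fitted to all 4 libraries, with Benjamini-Hochberg adjustment over all genes tested and a threshold of 0.05. The SE is the log2 fold change over the root of the F statistic. Levels of 0 are bounded by 3 counts, and bounds cover counting error only, since amplified reads are not independent molecules. Alternatives covered scalings, filters, DESeq2 1.42.0, limma voom 3.58.1, moderation, a threshold of 0.10, a block for the replicate number, and leaving out each library.

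Named genes were the 6 Irx genes, Smarca4, genes with reads inside the clusters, the 3 nearest protein-coding genes on each side, the 6 TALE genes with the highest CPM, the 3 highest members of each marker list (given where they bear on the Irx values) and the 3 nearest profiles to each Irx gene. Some genes that this rule takes are not reported here. Mkx, Myl2, Gsx1, Ptf1a and Fbxo2 fall outside this rule and were chosen after their values were seen. The members, lists and rule were chosen with earlier results of these data known. Distances use log2 CPM with a prior count of 0.5.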

Additional observations from a re-analysis of the deposited data

How the results depend on the processing

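The count of Irx genes called was 0, and 4 of the 6 had an unadjusted p under 0.05 by edgeR. It stayed at 0 with RLE or upper quartile scaling, gene totals alone, a minimum count of 50 (5 Irx genes tested), voom, the newer or non-robust edgeR moderation and a threshold of 0.10. It became 2 when genes down to 1 count were kept, 4 with DESeq2 and, leaving out each library in turn, 0 to 5. Over all genes the count of 5 became 417 (164 higher, 253 lower) down to 1 count, 10 (4 and 6) at the higher count filter, 2422 (1379 and 1043) under DESeq2, 54 (20 and 34) under voom, 62 (28 and 34) with the newer moderation, 38 (15 and 23) at 0.10, and 33 to 3519 with a library left out. The causes were not tested, beyond the fewer or more genes that each filter tests.

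With the replicate number as a block, 140 genes were called (71 higher, 69 lower), 1 of them an Irx gene, Irx1 (adjusted p = 0.0307, range over its alternatives 1.14e-10 to 0.841). Same-numbered libraries did not deviate together (r = -0.0125 across genes), so the numbers are not taken to pair the libraries. The log2 fold change of Irx4 turned to 1.47 with voom and 1.19 with the block, and that of Irx6 to 1.96 and 1.82; each had 0 reads in a Control library, and the cause was not tested. No value was fitted for Irx4 without Control replicate 2 or for Irx6 without Control replicate 1 or with a minimum count of 50. All 6 fold changes stayed negative under the other scalings, where the median over all genes was -0.01 to 0.07. Irx6, with 0 to 48 reads per library, and Irx4, with 0 to 512, had the widest intervals of the 6 genes.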
